A study of Mus musculus with 10 samples.

Results

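DNA methylation was measured in the lungs of 10 female BALB/c mice by Methyl-seq, in which DNA fragments are captured with probes, treated with bisulfite and sequenced, so that each read reports at each CpG whether that cytosine was methylated. Of these mice, 3 received saline only (saline), 3 were sensitised by injection of ovalbumin with alum and then challenged with ovalbumin through the nose (OVA, a model of allergic asthma), and 4 underwent the same OVA induction and received by mouth an extract of the seeds of Descurainia sophia (DSE, named Herb in the sample labels). The groups share sex, strain and tissue. The windows described here are 1000-bp stretches of the autosomes in which the methylation level, the percent of CpG calls that were methylated, was low in untreated OVA mice and not in the other mice. A window was chosen when it had at least 20 calls in all 10 mice, when the highest OVA mouse lay below the lowest of the 7 saline and DSE mice, and when the OVA mean lay at least 10 percentage points below the saline mean and at least 10 points below the DSE mean. In all, 448 windows met this rule, which is 0.109% of the 412413 autosomal windows with sufficient calls and part of the 446336 windows deposited. Because windows of 1000 bp were placed every 500 bp, neighbours share CpGs. The 448 windows merged into 363 regions, of which 278 were single windows and 85 were pairs, and in 58 of the pairs both windows held the same calls in every mouse. The comparisons of OVA with saline and of OVA with DSE chose these windows, so all values below for those comparisons are descriptions from which no significance is read.

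In mammals, methylation is laid on the cytosine of CpG pairs and copied at each cell division. Promoters rich in CpGs are usually free of it and gene bodies and intergenic DNA usually carry it, while enhancers and the edges of CpG islands often show intermediate levels that differ between cell types. The lung is a mixture of epithelial, endothelial, stromal and immune cells, and allergic inflammation brings in eosinophils, lymphocytes and other leukocytes. A level measured in whole lung is therefore an average over cells, and a change in the cell mixture cannot be told apart here from a change within cells. Methylation calls hold no expression markers, so the labelled tissue could not be checked against them.

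The reference sequence of 8 of the windows is shown as examples of what the results describe: the 3 with the largest separation of the OVA mice from the rest (nearest Kdm8 and Ccdc59 and in Zfand4), a second one at which no methylated call was seen in any OVA mouse (near Rad18), one of the paired windows (in Ptbp3), 2 at promoters (Tspan13 and Hat1), and that of Ifng. Each run is the stretch of 240 bases with the most CpGs in its window, on the forward strand of GRCm38 (the C57BL/6J reference, so BALB/c variants are not shown), with every CpG in capitals.

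Upstream of Kdm8, chr7:125415490-125415729: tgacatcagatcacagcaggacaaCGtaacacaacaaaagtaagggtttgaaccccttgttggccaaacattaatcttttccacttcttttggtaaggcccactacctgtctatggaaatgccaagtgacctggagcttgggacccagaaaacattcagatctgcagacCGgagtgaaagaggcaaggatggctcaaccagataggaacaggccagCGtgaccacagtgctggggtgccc

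Upstream of Rad18, chr6:112700014-112700253: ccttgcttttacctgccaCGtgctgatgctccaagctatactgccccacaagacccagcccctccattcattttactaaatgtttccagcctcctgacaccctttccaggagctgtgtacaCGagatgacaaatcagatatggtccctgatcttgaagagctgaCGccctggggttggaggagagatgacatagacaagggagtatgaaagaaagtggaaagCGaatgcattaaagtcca

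Nearest Ccdc59, chr10:105867354-105867593: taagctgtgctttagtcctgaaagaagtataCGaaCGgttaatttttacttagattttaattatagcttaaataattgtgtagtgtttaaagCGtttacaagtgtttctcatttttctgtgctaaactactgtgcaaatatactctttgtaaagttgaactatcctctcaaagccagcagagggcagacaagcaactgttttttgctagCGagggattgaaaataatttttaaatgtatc

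Zfand4, chr6:116287073-116287312: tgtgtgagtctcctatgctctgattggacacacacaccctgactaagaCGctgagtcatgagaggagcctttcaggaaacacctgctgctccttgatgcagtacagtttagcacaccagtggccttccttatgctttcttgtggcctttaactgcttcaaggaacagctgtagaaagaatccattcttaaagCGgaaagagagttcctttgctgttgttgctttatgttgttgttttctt

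Ptbp3 intron, chr4:59545142-59545381: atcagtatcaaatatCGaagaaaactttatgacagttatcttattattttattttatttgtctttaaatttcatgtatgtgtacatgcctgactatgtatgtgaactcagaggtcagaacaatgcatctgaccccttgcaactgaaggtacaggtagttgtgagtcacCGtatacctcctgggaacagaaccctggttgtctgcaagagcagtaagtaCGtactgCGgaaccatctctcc

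Tspan13 promoter, chr12:36042501-36042740: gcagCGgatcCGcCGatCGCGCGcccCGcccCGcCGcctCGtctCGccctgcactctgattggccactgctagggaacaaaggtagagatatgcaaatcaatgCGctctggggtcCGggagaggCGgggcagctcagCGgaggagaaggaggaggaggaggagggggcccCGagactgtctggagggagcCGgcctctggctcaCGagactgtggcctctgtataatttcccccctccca

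Hat1 promoter, chr2:71388761-71389000: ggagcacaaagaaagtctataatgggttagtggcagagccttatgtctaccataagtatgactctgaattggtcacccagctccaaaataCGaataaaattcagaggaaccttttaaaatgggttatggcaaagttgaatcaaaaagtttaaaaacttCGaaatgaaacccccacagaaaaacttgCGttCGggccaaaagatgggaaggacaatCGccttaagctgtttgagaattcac

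Ifng, chr10:118441575-118441814: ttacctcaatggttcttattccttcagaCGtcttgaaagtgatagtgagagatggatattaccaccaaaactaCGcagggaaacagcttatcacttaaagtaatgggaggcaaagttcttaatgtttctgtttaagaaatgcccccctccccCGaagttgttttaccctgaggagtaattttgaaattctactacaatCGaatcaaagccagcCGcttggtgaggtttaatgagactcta

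All but the Tspan13 stretch were sparse in CpGs, with 2 to 5 CpGs in 240 bases, whereas the Tspan13 stretch held 18. Over all 448 windows the median was 9 CpGs per window, compared with 13 over all windows with sufficient calls. At most 5 CpGs were present in 20.5% of the chosen windows and in 8.10% of all windows, and at least 20 CpGs in 5.36% and 26.4%. The median GC content was 43.2%. Only 1 of the windows had the composition of a CpG island (GC of at least 50% and an observed to expected CpG ratio of at least 0.6), compared with 6.86% of all windows. The median share of repeat-masked bases was 20.65%. Windows with the opposite pattern, higher in OVA mice only, were similar, so these traits were not particular to the chosen windows. Their medians were 9 CpGs, 43.7% GC and 20.5% repeat-masked bases. At most 5 CpGs were present in 22.0% of them, at least 20 in 6.16% and the composition of an island in 0%. Sparse CpGs limit each value, since a window with few CpGs gives few calls at the same sequencing depth. The chosen windows were also less deeply covered at each CpG. The median was 14.6 calls per CpG per mouse, compared with 12.2 in the windows higher in OVA mice only and 35.1 over all windows. Their median number of calls was 109, compared with 447 over all windows.

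Averaged over the 448 windows, the methylation level was 56.0%, 56.5% and 55.5% in the saline mice. It was 39.5%, 40.2% and 40.3% in the OVA mice. It was 57.0%, 54.9%, 57.2% and 54.7% in the DSE mice. The group means were 56.0% ± 0.518 (SD, n = 3), 40.0% ± 0.440 (SD, n = 3) and 55.9% ± 1.34 (SD, n = 4), in that order. Over all windows with sufficient calls, the mice did not separate in this direction: the saline mice lay at 50.9% to 51.4%, the OVA mice at 51.8% to 52.7% and the DSE mice at 51.6% to 52.8%. The difference from saline at a window ranged from 10.0 to 41.6 points below, with a median difference of -14.6 points, and the median difference from DSE was -14.5 points. The OVA mean lay at least 15 points below both other means at 111 windows, at least 20 points at 26 and at least 25 points at 1, whereas at 192 windows the smaller of the 2 differences was under 12 points. The separation itself was often narrow, with a median of 3.24 points between the highest OVA mouse and the lowest of the other 7, which is less than the median SD among the saline mice at these windows (4.68 points).

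**Figure D1:**
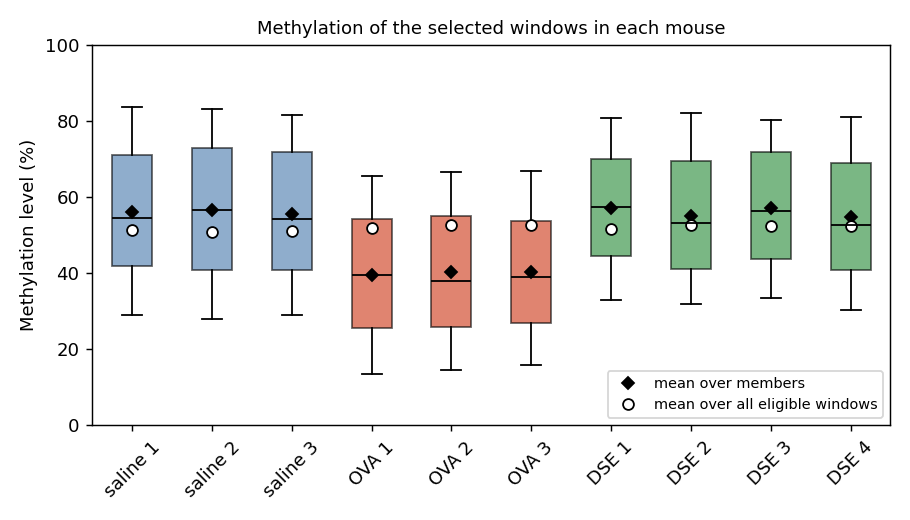
Methylation level (%) of the 448 windows in each of the 10 mice: boxes span the quartiles with the median as a line, whiskers the 10th to 90th percentile, filled diamonds the mean over these windows and open circles the mean over all windows with sufficient calls. The filled diamonds of the OVA mice sit at 39.5% to 40.3% and those of the other mice at 54.7% to 57.2%, as the rule requires, while the open circles of all mice lie between 50.9% and 52.8%.

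The windows were of intermediate methylation. The saline mean lay between 20% and 80% at 85.5% of them, compared with 54.9% of all windows, and the OVA mean lay in that range at 83.9% of them. Since the OVA mean had to be at least 10 points lower, windows with saline levels near 0 could not enter. No methylated call was seen in any OVA mouse at 4 windows, which formed 3 regions. The opposite pattern, all OVA mice above all other mice with the same differences of 10 points, was more frequent and held 714 windows in 566 regions. Without any threshold on the means, all 3 OVA mice lay below the 7 others at 1.48% of all windows and above them at 1.85%.

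Depth moved with the groups at these windows. The total number of CpG calls was between 306656737 and 410836272 per mouse over overlapping windows, and the ranges of the groups overlapped. At the 448 windows the median number of calls was 92 to 118 in the saline mice, 76 to 91.5 in the OVA mice and 168 to 224.5 in the DSE mice. In the 95970 windows whose median depth lay in the middle range of the chosen windows (66 to 217 calls), the corresponding medians were 110 to 134, 107 to 123 and 134 to 171 calls. The OVA mice were thus the shallowest and the DSE mice the deepest at the chosen windows, to a greater extent than at other windows of such depth. The order of the group medians was the same at the windows higher in OVA mice only. There the medians were 81 to 98.5 calls in saline, 69 to 84 in OVA and 119 to 154.5 in DSE mice. The part of depth in the low OVA values was not tested. The lowest number of calls in any mouse had a median of 58, and 59.4% of the chosen windows had at least 50 calls in every mouse, compared with 90.3% of all windows. At the median depth of 109 calls a level of 50% had a 95% Wilson interval of 40.3% to 58.8%, and at the minimum of 20 calls of 29.9% to 70.1%, where the intervals cover counting error only and calls from 1 molecule are not independent.

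The largest separation was found 29120 bp upstream of the start site of Kdm8, which encodes a JmjC-domain hydroxylase, in intergenic DNA (chr7:125415001-125416000; all coordinates are in GRCm38). The level was 23.5%, 20.3% and 25.7% in the saline mice, 0%, 0% and 0% in the OVA mice, and 26.2%, 29.5%, 35.9% and 29.8% in the DSE mice. None of 131 calls was methylated in the OVA mice, which allows a level of up to 2.29%, and the gap to the nearest other mouse was 20.3 points. A second region at 0 lay 3830 bp upstream of Rad18, a ubiquitin ligase of DNA damage tolerance (chr6:112700001-112701000). Here the level was 10.4%, 10.0% and 12.7% in the saline mice and 29.3%, 19.6%, 24.4% and 22.2% in the DSE mice, whereas none of 197 OVA calls was methylated, which allows up to 1.52%. The third lay in the non-coding gene 4933433G15Rik on chromosome 9, with saline mice at 8.11% to 14.1%, DSE mice at 4.94% to 19.2% and none of 101 OVA calls methylated. The lowest DSE mouse was thus only 4.94 points above the OVA mice there.

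The next window by size of the gap was intergenic, with its midpoint 26021 bp downstream of the start of Ccdc59 (chr10:105867001-105868000). The saline mice had 29.0%, 42.6% and 34.2%, the OVA mice 14.6%, 13.7% and 12.5%, and the DSE mice 45.7%, 37.9%, 40.2% and 37.0%. The OVA values rested on 24 to 51 calls and those of the DSE mice on 230 to 510. A window over coding exon 4 and intron 3 of Zfand4, a zinc finger protein gene (chr6:116287001-116288000), had 45.5%, 48.1% and 47.3% in saline mice, 30.4%, 29.7% and 33.6% in OVA mice, and 63.1%, 53.5%, 51.3% and 54.2% in DSE mice. It was deeper, with 134 to 401 calls per mouse, and its groups were separated by 11.9 points. 

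Several of the other largest gaps lay in introns. In intron 1 of Camk1d, a calcium/calmodulin-dependent kinase gene (chr2:5596001-5597000), the saline mice had 60.3%, 59.5% and 69.2%, the OVA mice 41.6%, 48.4% and 45.6%, and the DSE mice 66.9%, 67.0%, 60.8% and 67.8%. In intron 6 of Immp2l, a mitochondrial inner membrane peptidase gene (chr12:41878501-41879500), the levels were 63.8%, 65.4% and 58.3% in saline mice, 45.8%, 47.4% and 41.5% in OVA mice, and 70.9%, 64.1%, 69.0% and 63.1% in DSE mice. Both rested on more than 200 calls in every mouse, and no OVA mouse reached 50% in either. In intron 2 of Ptbp3, a splicing regulator gene (chr4:59544501-59545500), the OVA mice lay at 16.7%, 14.7% and 19.6%, the saline mice at 45.5%, 35.4% and 38.5%, and the DSE mice at 37.4%, 34.5%, 33.5% and 30.1%. The Ptbp3 region was 1 of the 85 pairs, as was the region nearest Cdkn2aip, and no region held more than 2 windows. Intron 19 of Lrch1 had group means of 48.6% ± 9.60 in saline, 28.5% ± 2.64 in OVA and 52.7% ± 5.0 in DSE mice, and intron 2 of Atxn7l1 had 76.4% ± 7.05, 56.2% ± 2.56 and 76.4% ± 5.63 (SD, n = 3, 3 and 4). The remaining windows of this set were intergenic, nearest to Ktn1, Gm29683, Qsox1 and Mir6417, with OVA means of 20.3% to 47.6% and gaps of 10.0 to 11.1 points.

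**Figure D2:**
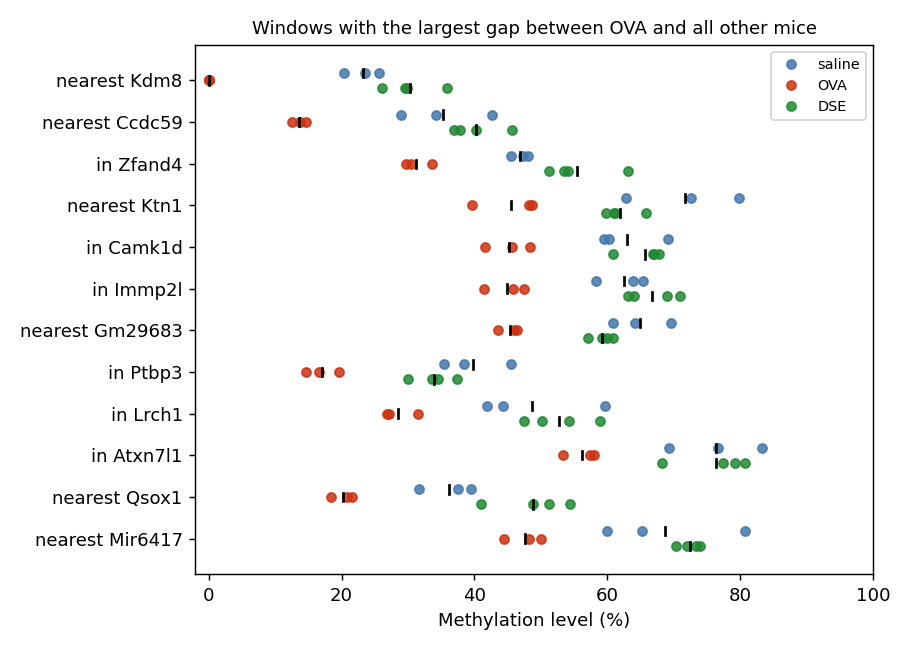
Methylation level (%) of each mouse at the 12 regions with the largest gap between the highest OVA mouse and the lowest saline or DSE mouse, ordered from the largest gap (20.3 points) down to 10.0 points. Points are mice, coloured by group, and vertical ticks are group means. The OVA points lie to the left of all others in each row, as the rule requires, while the saline and DSE points overlap in some rows and not in others.

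The just-met and just-missed windows show how little the threshold separated. The members nearest to it lay in intron 15 of Ahi1, with a difference between OVA and saline of -10.02 points (-6.21 points without OVA replicate 3), and near Ggta1 and Gem, with differences between OVA and DSE of -10.04 and -10.06 points. The nearest windows outside lay in intron 4 of Cacna2d2 and intron 14 of Snx29, with differences between OVA and DSE of -9.99 and -9.96 points, and at the promoter of Cep20, with a difference between OVA and saline of -9.96 points.

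By location, 58 windows in 55 regions (12.9%) overlapped a promoter, taken as 1000 bp either side of a transcription start site in RefSeq, compared with 19.7% of all windows and 7.84% of those higher in OVA mice only. Exons outside promoters held 7.59% (13.7% of all windows), introns 35.5% (30.1%) and intergenic DNA 44.0% (36.6%). The median distance from the midpoint of a window to the nearest start site was 17802.5 bp, against 13153 bp over all windows. When a window was assigned by its midpoint alone, the promoter share was 8.04% against 15.1%. Windows of low saline level could not meet the rule, and the median saline mean over all promoter windows was 7.29%. Promoter shares below those of all windows are thus in part built in, and by how much was not tested. The share of windows with sufficient calls that were chosen ranged from 0.0493% on chromosome 7 to 0.200% on chromosome 3, so every autosome contributed.

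**Figure D3:**
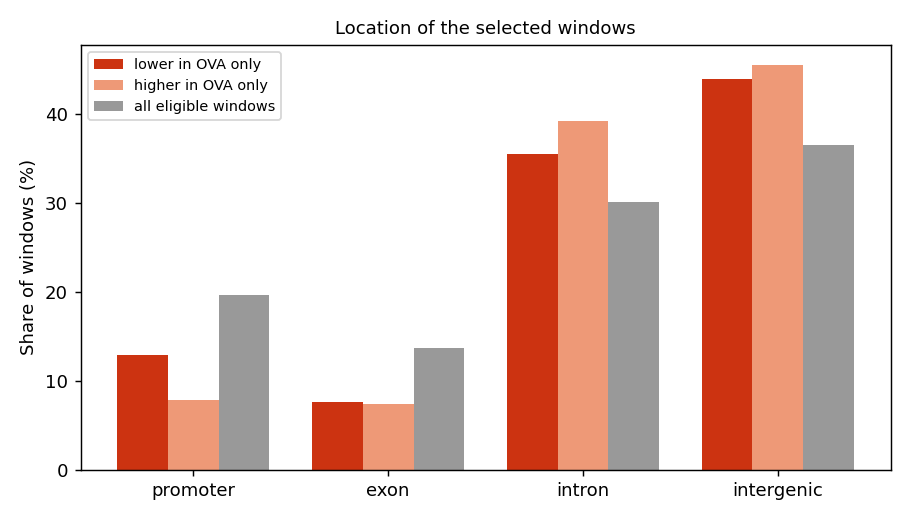
Share (%) of windows that overlap a promoter, or failing that an exon, an intron or no gene, for the 448 windows lower in OVA mice only, the 714 windows higher in OVA mice only and all 412413 windows with sufficient calls. Promoters hold 12.9% of the first set, 7.84% of the second and 19.7% of all windows.

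Of the 58 promoter windows, 8 contained a start site. The definition also admits windows that only lie beside one, and the share over all promoter windows was not counted. They were also more methylated than usual for promoters, with a median saline mean of 45.3%, compared with 7.29% over all promoter windows. The rule set a least difference between the OVA and saline means, and a window with a saline mean of 7.29% could not reach it. The higher saline level is therefore in part built in. The median difference between OVA and saline at the chosen promoter windows was -13.0 points. In all, 51 belonged to a protein-coding gene.

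Of the promoter windows of coding genes, that of Srek1ip1 had the largest gap (chr13:104818001-104819000, in intron 1 and 831 bp from the start site). Its levels were 47.5%, 48.9% and 40.0% in saline mice, 26.9%, 18.1% and 16.7% in OVA mice, and 67.0%, 36.7%, 49.2% and 38.4% in DSE mice, from as few as 26 calls. The promoter of Slc30a5, a zinc transporter gene (chr13:100833501-100834500, outside the gene), had 30.3%, 27.9% and 30.6% in saline mice, 8.82%, 16.0% and 19.4% in OVA mice, and 28.5%, 40.7%, 33.2% and 42.5% in DSE mice. A window that ended 23 bp from the start site of Tspan13, a tetraspanin gene (chr12:36042501-36043500), had 52.9%, 48.6% and 50.9% in saline mice, 36.0%, 39.9% and 37.4% in OVA mice, and 61.9%, 62.4%, 70.0% and 48.1% in DSE mice, with 358 to 879 calls per mouse. In these windows the DSE mice were more spread than the saline mice. 

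Hat1 encodes the histone acetyltransferase that acetylates newly made histone H4. Its promoter window (chr2:71388001-71389000) ended 260 bp before the start site and was among the most deeply covered members, with 737 to 1280 calls per mouse. The level was 45.2%, 42.1% and 50.8% in saline mice, 31.7%, 34.6% and 33.1% in OVA mice, and 55.5%, 56.6%, 46.8% and 50.6% in DSE mice. At Ccdc58 and Fam162a, which share this promoter window in intron 1 of Ccdc58 (chr16:36072501-36073500), the OVA mice were almost unmethylated at 2.78%, 3.45% and 0%, with saline mice at 19.6%, 11.5% and 15.3% and DSE mice at 29.5%, 19.5%, 24.6% and 16.2%. Windows at 6820408C15Rik and Sec16b had OVA means of 32.3% ± 3.30 and 64.8% ± 1.72, against 45.1% ± 1.49 and 77.1% ± 3.23 in saline mice.

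Mycbp2, a large ubiquitin ligase gene, and the non-coding gene Gm34758 share the promoter window chr14:103347001-103348000. The saline mice had 17.0%, 17.9% and 23.0%, the OVA mice 9.26%, 7.74% and 6.89%, and the DSE mice 39.4%, 38.6%, 43.1% and 32.3%. All 4 DSE mice lay above all 3 saline mice, and all OVA mice below them.

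The deepest members were chosen after their values were seen, as those where counting error was smallest. Snx15, a sorting nexin gene, had a window in intron 1 (chr19:6127001-6128000) with 1204 to 2390 calls per mouse and levels of 34.0%, 35.9% and 32.0% in saline mice, 17.6%, 24.7% and 28.2% in OVA mice, and 34.1%, 37.1%, 34.0% and 30.4% in DSE mice. The promoter of Dtx4, a ubiquitin ligase gene of the Notch pathway (chr19:12502001-12503000), had 42.0%, 39.8% and 40.8% in saline mice, 25.9%, 33.7% and 27.2% in OVA mice, and 36.6%, 37.9%, 42.9% and 39% in DSE mice. In the Snx15 window the OVA mice differed from one another by more than the highest of them differed from the nearest other mouse. In a window 123346 bp upstream of the start of Gimd1 (chr3:132506001-132507000), by contrast, the mice of each group were close, at 60.4%, 62.2% and 60.6% in saline, 49.9%, 51.1% and 51.9% in OVA and 61.8%, 60.5%, 62.1% and 60.3% in DSE mice. These deep windows met the threshold of 10 points narrowly. At Snx15 the difference between OVA and saline was -10.4 points, and -7.45 points without OVA replicate 1. At Dtx4 that between OVA and DSE was -10.2 points, and -8.64 points without the same mouse. At Gimd1 the difference between OVA and saline was -10.1 points, and -9.58 points without saline replicate 2.

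A few other promoter windows, at Ncf1, Nfe2 and Prss57, were singled out after their values were seen. They were picked singly and stand for no gene group. The T cell, B cell, eosinophil and mast cell, macrophage and neutrophil, and pan-leukocyte gene lists described below held no chosen window. These lists are short, so that says little. The start site of Ncf1, which encodes a cytosolic subunit of the phagocyte NADPH oxidase, lay within a pair of windows. In the first (chr5:134229001-134230000) the saline mice had 72.9%, 68.9% and 66.5%, the OVA mice 49.0%, 46.3% and 36.1%, and the DSE mice 62.7%, 52.5%, 56.4% and 52.9%. No DSE mouse reached the lowest saline mouse. Nfe2, a transcription factor gene of blood cell formation (chr15:103255501-103256500), had 50.2%, 46.6% and 44.3% in saline mice, 33.9%, 31.9% and 35.2% in OVA mice, and 51.4%, 50.1%, 53.0% and 41.3% in DSE mice. The window before Prss57, a serine protease gene of neutrophil granules (chr10:79789001-79790000), had 67.2%, 80.4% and 50% in saline mice, 41.9%, 41.8% and 38.1% in OVA mice, and 58.6%, 45.8%, 52.2% and 54.9% in DSE mice, with a spread of over 30 points among the saline mice.

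Genes were then counted. Of 20390 RefSeq genes with a window of sufficient calls in the gene or within 1000 bp of it, 226 (1.11%) held a chosen window. Of 15 gene lists, 13 held none: Th2 and type 2 cytokine genes (0 of 13 genes with a window), epithelial alarmins and receptors (0 of 7), T cell (0 of 25), B cell (0 of 12), eosinophil and mast cell (0 of 16), macrophage and neutrophil (0 of 17), pan-leukocyte (0 of 19), alveolar epithelial (0 of 17), airway epithelial and mucin (0 of 15), endothelial (0 of 21), and fibroblast, matrix and smooth muscle genes (0 of 31), DNA methylation writers, erasers and readers (0 of 14) and asthma risk gene orthologs (0 of 27). Lists of this size hold few windows, so a count of 0 says little beside the 1.11% of all genes. Ifng, the gene of interferon-γ, was 1 of 13 genes of the Th1, interferon and cytotoxic list. The study printed 7 genes by name in enriched pathways of this same pattern, and 5 of them had a window of sufficient calls. Ifng and Nfat5 were 2 of these 5, whereas Vegfa, which the study also named, held no chosen window. The study's pattern holds many more genes than those printed, so this count is not a share of it. That list was drawn from these mice and so is not independent evidence.

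In the Ifng window (chr10:118441501-118442500), which covered intron 1 and coding exon 2 and began 455 bp after the start site, the saline mice had 68.0%, 50% and 55.6%. The OVA mice had 42.9%, 42.0% and 49.0%, and the DSE mice 54.2%, 53.4%, 62.0% and 50%. The highest OVA mouse lay 0.993 points below the lowest other mice, which is less than the SD within any group (3.81 to 9.23 points). The difference between OVA and saline was -13.3 points, and -8.18 points without saline replicate 1. In intron 2 of Nfat5, the gene of an osmotic stress transcription factor (chr8:107329501-107330500), the levels were 52.2%, 42.4% and 65.5% in saline mice, 32.1%, 41.0% and 32.8% in OVA mice, and 51.6%, 54.8%, 62.5% and 53.3% in DSE mice. That window held 4 CpGs and as few as 39 calls, and its gap was 1.40 points. The difference between OVA and saline was -18.1 points, and -12.0 points without saline replicate 3.

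Some genes held more than 1 region: among them, Dym held 3, and Akap13, Atxn7l1 and Sh3tc2 held 2 each, in introns. In Dym, whose product acts at the Golgi, the OVA means were 8.07% ± 4.20, 61.2% ± 2.09 and 13.5% ± 1.15 in introns 2, 14 and 16, and the saline means 20.9% ± 6.08, 75.9% ± 3.87 and 26.5% ± 2.44 (SD, n = 3). In Akap13, a kinase anchoring protein gene, windows in introns 5 and 13 had OVA means of 44.5% ± 2.28 and 42.1% ± 2.11, saline means of 69.4% ± 2.97 and 54.7% ± 5.78 and DSE means of 54.7% ± 1.6 and 53.1% ± 3.31. Both a window lower and a window higher in OVA mice only were held by 11 genes, among them Cbfa2t2, Nebl and Taok3. For comparison, 226 of the 20390 genes with a window held a lower one and 362 a higher one. The 11 included the gene models Gm37013, Gm38666 and Gm38667, and whether these shared the same windows was not tested.

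The difference at the chosen windows was compared with that at their neighbours. At windows starting 1000 bp to 5000 bp away, which share no CpG with the chosen window, the median difference between OVA and saline was between -0.437 and 0.265 points, compared with 0.738 points over all windows, and that between OVA and DSE was between -0.499 and 0.116 points, compared with 0.0326 points. The OVA mean lay below both other means in 28.6% to 41.0% of these neighbours, against 25.2% of all windows. All OVA mice lay below all others in 0% to 3.96% of these neighbours, compared with 1.48% of all windows. Only windows with sufficient calls were used, which left 68 to 167 neighbours at each distance.

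**Figure D4:**
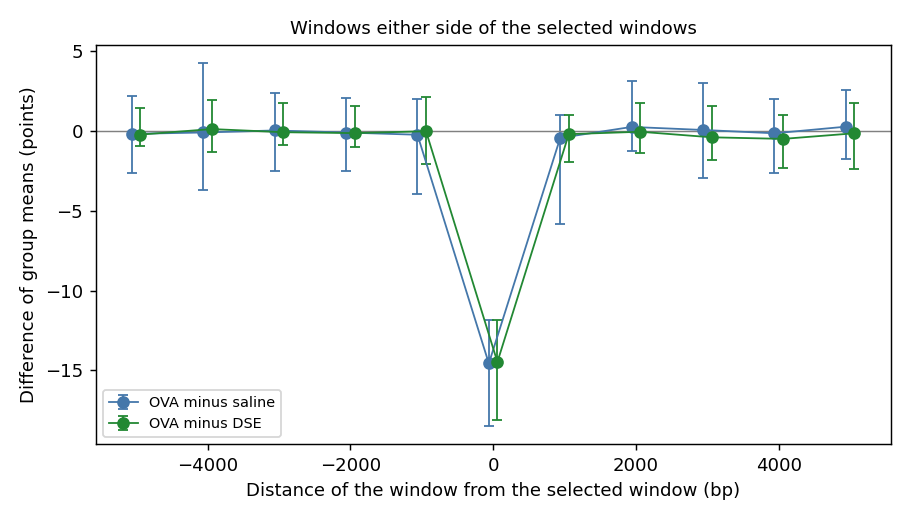
Difference between group means (percentage points) at the chosen windows (distance 0) and at windows starting up to 5000 bp either side. Points are medians over windows and bars the quartiles, blue for OVA minus saline and green for OVA minus DSE. The values at 0 (medians of -14.6 and -14.5 points) were fixed by the rule, and all other medians lie within 0.5 points of 0.

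Short sequence motifs of transcription factors of allergic inflammation were searched on both strands of each window. The STAT6 motif (TTC and GAA parted by any 4 bases) was present in 31.7% of the chosen windows, 26.2% of those higher in OVA mice only and 23.5% of all windows. The GATA motif AGATAA was present in 52.0%, 51.5% and 41.1%, the RUNX motif TGTGGTT in 27.9%, 21.6% and 21.6%, and the AP-1 motif TGANTCA in 29.0%, 26.8% and 25.7%. The ETS motif AGGAAG was found in 77.9%, 73.1% and 74.8% and the NFAT motif GGAAAA in 64.5%, 65.3% and 61.1%. Of the motifs with a CpG, the longer C/EBP motif TTGCGCAA was rare, in 0%, 0.140% and 0.192%, and the E-box CACGTG was present in 12.1%, 10.1% and 15%. The ETS and NFAT motifs share the letters GGAA. The chosen windows had less GC and fewer CpGs than all windows, which bears on shares of AT-rich and CpG-bearing motifs, and these matches are descriptions and not binding sites.

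The comparison of DSE with saline mice was the only one that the rule did not use, although it bounds it, since both groups had to lie above the OVA mice. Windows where the DSE mice stayed near the OVA mice could not enter, so similar DSE and saline levels are in part built in. The comparison therefore describes these windows only and cannot show how closely the treated mice matched saline mice in general. Over the 448 windows the DSE mean lay above the saline mean at 214 and below it at 234, with a median difference of -0.114 points and a range of -22.9 to 22.2 points. The means were within 5 points of each other at 62.9% of them, compared with 70.8% of all windows. In a likelihood ratio test of the calls in a logistic model, adjusted over all windows by the Benjamini-Hochberg method, windows were called at an adjusted p under 0.01 where pooled calls differed by 10 points or more. Of the 448 windows, 27 (6.03%) were higher in DSE mice, compared with 5.09% of all windows. A further 17 windows (3.79%) were lower in DSE mice, compared with 3.13% of all windows. Both shares were near those of all windows. Every DSE mouse lay above every saline mouse at 39 windows (8.71%, against 16.6% of all windows) and below every saline mouse at 26 (5.80%, against 7.93%). That test treats calls as independent. With limma on M-values, a test on the spread between mice, 0 of the 448 windows passed an adjusted p under 0.01, and 1 of all windows did. At a limma adjusted p under 0.05, 17 of the 448 windows passed, and 23854 of all 412413 windows did. In limma, 88 of the 448 had an unadjusted p under 0.05 (19.6%, against 25.2% of all windows). An F test scaled by the spread between mice also called 0 of the 448 and 0 of all windows. In that test, 45 of the 448 had an unadjusted p under 0.05 (10.0%, against 21.3% of all windows).

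The 27 windows higher in DSE mice formed 23 regions and started from low to intermediate levels, with a median saline mean of 33.9%. Among them were the windows at the promoters of Mycbp2 and of Nmd3, a ribosome export factor gene, and the window nearest Qsox1. In the Mycbp2 window the pooled difference between DSE and saline was 18.8 points (adjusted p = 6.49e-34 in the likelihood ratio test, 0.0223 with limma), and all 4 DSE mice lay above all 3 saline mice. At the window nearest Qsox1 (chr1:155826001-155827000) it was 12.6 points (adjusted p = 0.000342 in the likelihood ratio test, 0.0828 with limma), with saline mice at 39.4%, 37.5% and 31.7% and DSE mice at 48.8%, 41.1%, 54.4% and 51.2%. At Rad18 it was 13.2 points (adjusted p = 4.61e-06 in the likelihood ratio test, 0.0242 with limma). Over coding exon 13 of Dars, a transfer RNA synthetase gene (chr1:128368001-128369000), it was 23.7 points (adjusted p = 8.65e-09 in the likelihood ratio test, 0.0547 with limma), again with the DSE mice above the saline mice.

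The 17 windows lower in DSE mice formed 13 regions and started from higher levels, with a median saline mean of 77.0%. At such windows the rule and the call together place the DSE mean between the OVA and the saline means, though single DSE and saline mice could overlap. At Ncf1 the pooled difference was -12.8 points (adjusted p = 2.48e-06 in the likelihood ratio test, 0.050 with limma). At the promoter of Adcy7, an adenylyl cyclase gene of blood cells (chr8:88287501-88288500), the saline mice had 71.7%, 63.8% and 45.3%, the OVA mice 31.5%, 26.1% and 23.5%, and the DSE mice 54.3%, 34.7%, 42.0% and 35.6%, a pooled difference of -19.7 points between DSE and saline (adjusted p = 0.000493 in the likelihood ratio test, 0.143 with limma). The lowest saline mouse lay below the highest DSE mouse there. At the window nearest Ktn1 the difference was -10.0 points (adjusted p = 0.00341 in the likelihood ratio test, 0.178 with limma). The Nmd3, Rad18, 4933433G15Rik, Dars, Ncf1 and Adcy7 windows were outside the rule for named windows and were chosen after their values were seen.

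Of the 12 windows with the largest gap, that nearest Qsox1 was called higher and that nearest Ktn1 lower in DSE mice. Those in Zfand4 (8.97 points, adjusted p = 0.000978 in the likelihood ratio test) and nearest Gm29683 (-6.06 points, adjusted p = 0.00386) passed the p threshold and not that of 10 points. The remaining windows were not past either threshold, among them those nearest Kdm8 (6.73 points, adjusted p = 0.164) and Ccdc59 (5.47 points, adjusted p = 0.123) and in Ptbp3 (-5.67 points, adjusted p = 0.239) and Camk1d (1.84 points, adjusted p = 0.50). Nor was a difference called at Ifng (-3.38 points, adjusted p = 0.263) or Nfat5 (-0.123 points, adjusted p = 0.984), which had small gaps. These values do not show that the groups were alike, as the depth limits each of them.

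**Figure D5:**
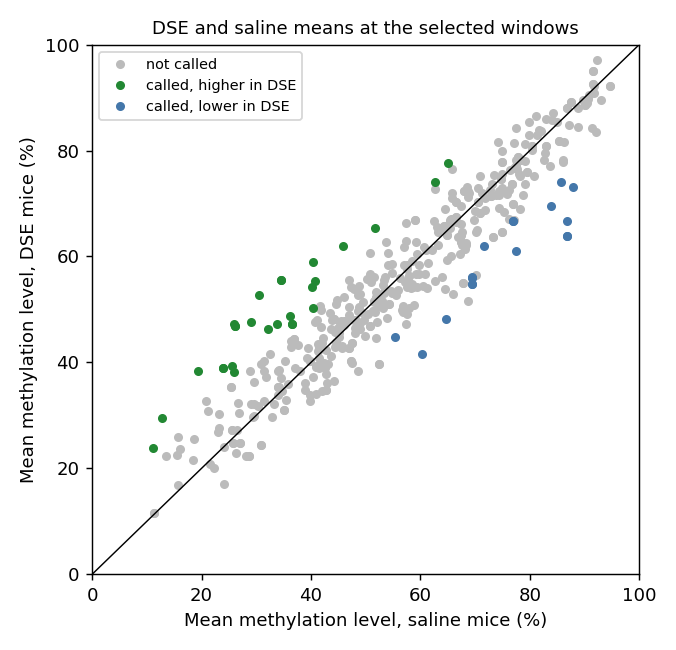
Mean methylation level (%) of the 4 DSE mice against that of the 3 saline mice at the 448 windows, each point a window, with the line of equal levels. Green points (27) were called higher and blue points (17) lower in DSE mice by the likelihood ratio test with a difference of at least 10 points. The green points lie at saline means of 11.0% to 65.0% and the blue points at 55.3% to 87.9%.

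For the comparisons that chose the windows, the counts past the same thresholds are given as a description only. Of the 448 windows, 345 were past both thresholds as lower in OVA than in saline mice, where 2.64% of all windows were, and 327 as higher in DSE than in OVA mice, where 0.887% of all windows were. These counts follow from the choice of the windows.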

How the data were processed

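The authors prepared lung DNA with the SureSelect Methyl-seq capture, trimmed the reads, mapped them to mm10 with Bismark and summed the calls with methylKit; the submitters' processing notes give cutadapt 1.10, Bismark 0.19.0 and methylKit 1.0.0, and the study's methods give other versions of each. The deposited files hold raw counts per mouse, not normalized: all CpG calls and the methylated ones in 1000-bp windows placed every 500 bp. Windows had at least 10 calls in every mouse. The labels give no batch.

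Percentages were computed per mouse, and a group value is the mean ± SD over its mice. Chromosomes 1 to 19 were used. Genes, start sites and exons were those of curated RefSeq transcripts of GRCm38, in which no window lay beyond a chromosome end. DSE was compared with saline with a logistic model of the calls and its likelihood ratio test (Python 3.11.15, scipy 1.17.1), fitted on the 3 saline and 4 DSE mice over all 412413 windows with Benjamini-Hochberg adjustment, and tested on simulated data. Alternatives were an F test with a scale factor, limma 3.58.1 on M-values with a pseudocount of 1, a replicate block, other minima of calls, and leaving out each mouse. Mice of a group were compared by the chi-square of their calls per window, which averaged 2.62 to 3.75 where 1 is the value for independent calls; calls from 1 molecule can also raise it, and no pair held the same calls.

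Named windows were, with 1 window per region, the 12 with the largest gap between the highest OVA and the lowest other mouse, the 8 with the largest gap at promoters of coding genes, those of the gene lists, the 3 regions with the most windows, and the 3 windows nearest to the threshold on either side. The members, the rule and the gene lists were chosen with earlier results of these data known. RNA-seq was not analysed here, and some windows that the naming rule covers are not reported here.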

Additional observations from a re-analysis of the deposited data

Results flagged for a closer look

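Among 34 named windows, 1 had a DSE mouse that stood apart from the other 3 by Dixon's criterion at the 95% level, which chance meets in about 1 of 20 groups. In the window in intron 1 of Camk1d, DSE replicate 3 was at 60.8%, whereas the next DSE mouse was at 66.9% and the highest at 67.8%. It remained above the highest OVA mouse, at 48.4%, in that window.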

How the results depend on the processing

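The number of windows was 596 in 475 regions with a minimum of 10 calls, 431 in 349 with pooled calls of a group (418 of them shared with the 448) and 445 in 362 with at least 2 CpGs. It was 266 in 221 regions with a minimum of 50 calls, 939 in 749 when the 10 points were required against saline only, 26 in 22 when 20 points were required against both, and 238 among windows that do not overlap. Leaving out 1 mouse gave 484 to 1269 windows and 394 to 1003 regions. The counts were 1082, 1269 and 1023 windows without OVA replicates 1, 2 and 3, of which 369, 388 and 373 were among the 448, and the fewer mice a rule of no overlap has to separate, the more windows meet it. The promoter share was 8.04% by the midpoint and 14.3% with promoters of 2000 bp upstream to 500 bp downstream. The 44 windows called between DSE and saline (9.82%, against 8.22% of all windows) became 0 with the F test and 0 with limma. These tests called 0 and 1 of all windows, so the zeros are not particular to the chosen windows. With a minimum of 50 calls, 28 of 266 members were called (10.5%, against 8.20% of all windows). With no threshold on the difference, 76 were called (17.0%, against 31.3% of all windows). Leaving out 1 mouse gave 39 to 48 (8.71% to 10.7%, against 7.50% to 9.37% of all windows). With the replicate number as a block, 43 were called (9.60%, against 7.80% of all windows). Deviations of same-numbered mice from their group means correlated at -0.0284 to 0.0800 over windows, compared with -0.0582 to 0.0447 for mice of different numbers. These low correlations cannot settle whether the numbers mark shared handling. The rule fixes the sign of each member's differences whichever mouse is left out. Of 34 named members, 12 had a difference under 10 points without 1 of the mice, and 3 differences, at Ahi1, Ifng and Nfat5, moved by over 1.5 times. Depth limits 182 of the members, which had under 50 calls in at least 1 mouse.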

Other observations

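Chromosome X was not part of the rule. Of its 9291 windows that reached 20 calls in every mouse, 17 met the same criteria for lower values in OVA mice only and 25 met them for higher values.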
